A study of Mus musculus with 8 samples.

Results

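The comparison described here asks what the loss of STAT3 did to the RNA of lung group 2 innate lymphoid cells (ILC2s) in cultures that were not given IL-33. It rests on 4 libraries, 2 of STAT3-KO control cells and 2 of WT control cells, out of 8 in the series. The genes compared were the 10894, of 22075 listed, that reached 1 FPKM in 2 or more of these libraries. FPKM is the number of fragments scaled to gene length and to library size, so it allows levels to be compared between genes.

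The WT cells came from C57BL/6 mice with both Stat3 alleles floxed (Stat3fl/fl), and the STAT3-KO cells came from VavicreStat3fl/fl mice of that strain. The iCre recombinase driven by Vav is active throughout the blood lineage, so the mice lacked STAT3 in their other blood cells too. The controls carried no recombinase, so that an effect of iCre itself and an effect of STAT3 loss cannot be told apart. ILC2s were purified from lung after a brief exposure of the mice to the protease papain, which activates ILC2s, and were expanded with IL-2 at 10 ng/ml over about 5 days. Cells of the IL-33 groups then received 10 ng/ml IL-33 for 2 days; what the control cells received in that time is not described in the labels. The labels do not say whether replicates were separate mice or cultures, so p values measure the spread between libraries, which may be technical.

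ILC2s are tissue-resident lymphocytes without antigen receptors that answer epithelial alarmins such as IL-33 with the type 2 cytokines IL-5 and IL-13. STAT3 is a transcription factor that is phosphorylated by Janus kinases below receptors such as those for IL-6, IL-10 and IL-21, dimerises, and binds palindromic sites in DNA. STAT5, which answers IL-2 and IL-7, binds sites of similar sequence. T-bet, encoded by Tbx21, is the master regulator of the type 1 lymphoid programme of NK cells and group 1 innate lymphoid cells (ILC1s), which is set against the type 2 programme of GATA3.

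The libraries held between 15843683 and 16817355 recovered reads in control, a depth that sets 3 reads at 0.178 to 0.189 FPKM for 1 kb of gene. Replicates correlated across genes at r = 0.97 in WT control and 0.98 in STAT3-KO control. WT control 1 stood apart: the first component of the 4 control libraries, with 47.3% of the variance, placed it at -32.4, against 2.10 for WT control 2 and 15.7 and 14.6 for the STAT3-KO libraries. Of the 10 defining ILC2 markers, all were measured, and their summed FPKM lay between 3547 and 3776 in the 4 control libraries. Markers of granulocytes summed to at most 0.0455 FPKM, and of the 10 T cell genes in the table Cd4, Cd8a, Cd8b1, Cd3d and Cd3e were at or below 0.229 FPKM. The T cell list summed to between 553 and 605 FPKM, most of it Trbc2 at 508 to 550; its other members were Trbc1 at 32.2 to 46.7, Cd3g at 6.75 to 9.15, Trac at 0.800 to 3.82 and Cd247 at 1.03 to 2.37, and none was called.

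Stat3 itself was lower in STAT3-KO, as the genotype labels require. Its FPKM was 41.7 and 50.7 in WT control and 15.3 and 16.0 in STAT3-KO control. The groups did not overlap, and the mean fell 2.95-fold, from the gene at chr11:100885098-100939540 (GRCm38). On the log2(FPKM + 1) scale used for all tests the difference was -1.50 ± 0.15 (SE), with an adjusted p of 0.00503 in limma. The remaining reads cannot be assigned to undeleted exons or to undeleted cells in a table of gene totals. None of the 30 tested genes within 500 kb of Stat3 was called, among them its neighbours Stat5a and Stat5b, and their differences lay between -0.35 and 0.44.

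Across the genome few genes passed the test in control. A gene was called at a Benjamini-Hochberg adjusted p under 0.05 in limma, and 53 of 10894 genes were called (0.487% of those tested), 30 of them higher in STAT3-KO (0.275%) and 23 lower (0.211%). Of the called genes 40 differed by at least 2-fold, 24 upwards and 16 downwards. At an unadjusted p under 0.05 there were 1040 genes, and the median difference of all tested genes was 0.02. With only the 4 control libraries in the fit the count fell to 7. It also fell when single control libraries were left out, as described below under the dependence on processing. All 53 called genes separated the groups in control, so leaving out a control library could not change the sign of any. Leaving out any of the 4 control libraries moved no called difference by more than 1.5 times (range 0.758 to 1.24 of the value from all libraries). The genes were called from these same libraries, which favours a narrow range, so the range is no test of their stability. Of the protein-coding genes among them, Cd70, Ckmt1 and H2-DMb2 passed the filter through STAT3-KO alone and Sprn through WT alone. The protein-coding genes, 23 higher and 19 lower, are described first, by what their products do.

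**Figure D1:**
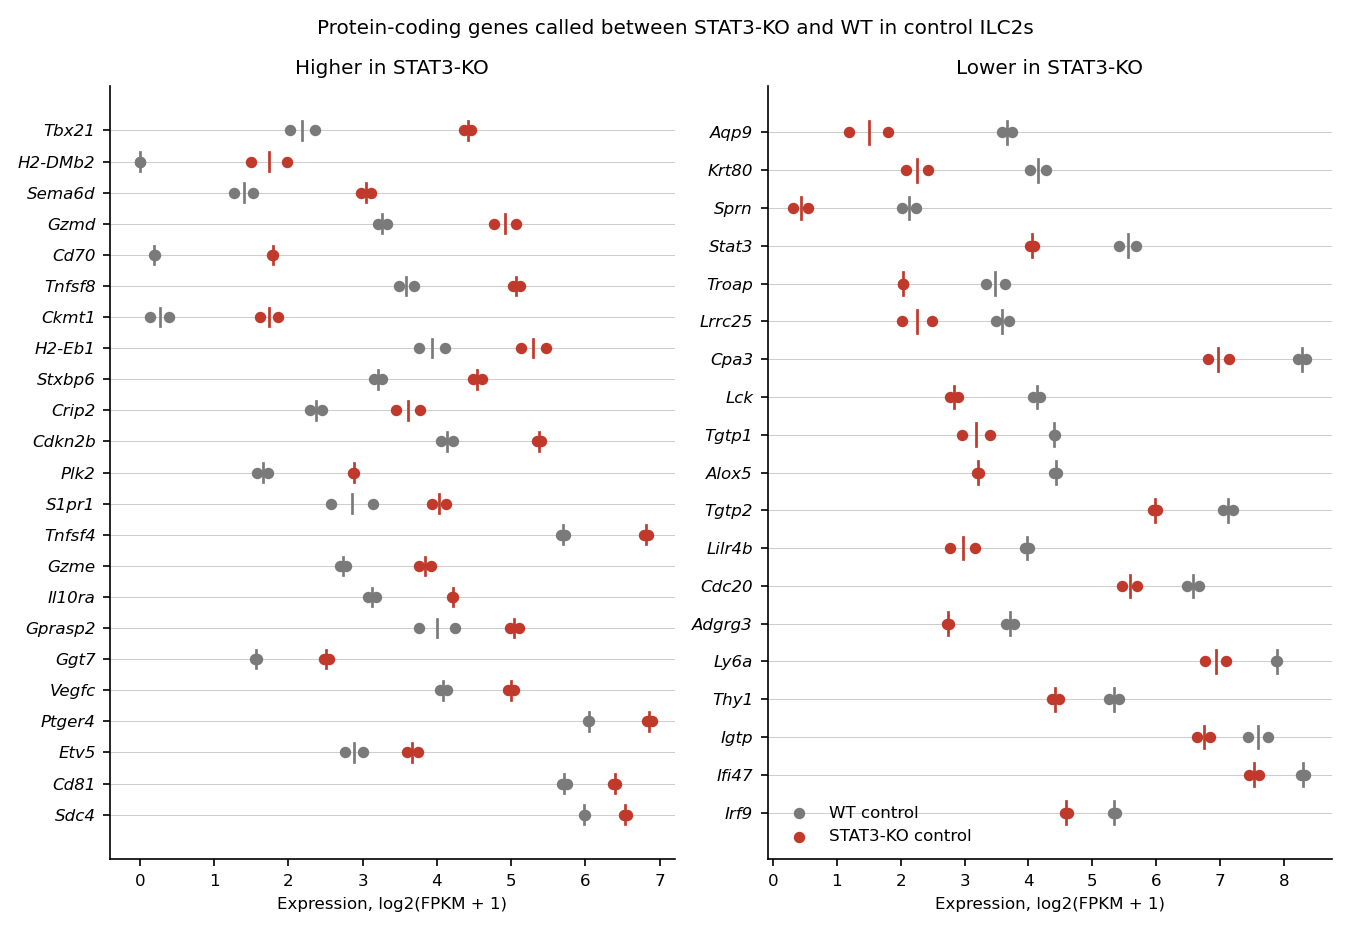
FPKM of the 42 called protein-coding genes in the 4 control libraries, on the log2(FPKM + 1) scale; points are libraries and bars group means. In every row the 2 WT libraries and the 2 STAT3-KO libraries lie apart, from Tbx21 at the top of the higher genes to Sdc4 at their foot, and from Aqp9 to Irf9 among the lower ones.

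Tbx21 had the largest rise of a protein-coding gene on the log2(FPKM + 1) scale, which understates the change of low genes such as Cd70, Ckmt1 and H2-DMb2. Its FPKM was 4.12 and 3.04 in WT control and 19.7 and 21.02 in STAT3-KO control. Both STAT3-KO libraries lay far above both WT libraries, 5.68-fold in the mean (log2 difference 2.23 ± 0.22, adjusted p = 0.00503 in limma; chr11:97098071-97115331). Most other genes that mark NK cells and ILC1s stayed at or near 0: Ncr1 was listed at 0 in all 4 libraries, and Eomes, Klrb1c, Klrk1, Klra4 and Klre1 were at or below 0.482 FPKM. Gzma, a granzyme in the same list, was at 1.07 and 1.38 in WT and 3.01 and 1.43 in STAT3-KO (0.49 ± 0.28, adjusted p = 0.668). The summed FPKM of the 8 such markers in the table was 5.65 and 4.47 in WT control against 23.5 and 22.8 in STAT3-KO control, and most of that rise was Tbx21. In bulk RNA, fewer cells of a type and less RNA per cell cannot be told apart. Gata3, the type 2 master regulator, was at 464 and 454 FPKM in WT and 514 and 516 in STAT3-KO (0.17 ± 0.08, adjusted p = 0.584).

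Granzymes, the serine proteases of cytotoxic granules, were higher in part. Gzmd was at 8.22 and 9.04 FPKM in WT and 32.6 and 26.2 in STAT3-KO (log2 difference 1.65 ± 0.19, adjusted p = 0.00867), and Gzme at 5.46 and 5.86 against 14.2 and 12.6 (1.11 ± 0.17, adjusted p = 0.0293). Neither gene's groups overlapped. Of the 13 tested granule genes these 2 were called, where 0.275% of all tested genes were called higher. Without overlap 9 were higher, where 21.1% of all tested genes were, and 2 were lower, where 17.3% were. The differences ran from -0.92 to 1.65, with a median of 0.58 against 0.02 over all genes. Gzmb, the granzyme of killer lymphocytes, was at 11.8 and 9.27 against 17.7 and 16.9 (0.67 ± 0.17, adjusted p = 0.153), and perforin, Prf1, overlapped between the groups. Gzmd, Gzme, Gzmc and Gzmg are near-identical neighbours on chromosome 14, so reads may have been divided among them by the authors' counting.

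Ligands of the TNF family, the partners of co-stimulatory receptors on lymphocytes, gave 2 called rises from clear WT levels, and a call for Cd70, which reached the FPKM minimum through STAT3-KO alone. Tnfsf4, which encodes OX40L, was at 51.9 and 50.1 FPKM in WT and at 110 and 114 in STAT3-KO. The STAT3-KO libraries were 2.19-fold higher in the mean, with no overlap (1.12 ± 0.10, adjusted p = 0.00503; chr1:161395409-161418410). Tnfsf8, which encodes CD30L, was at 11.9 and 10.2 against 31.7 and 33.6 (1.48 ± 0.14, adjusted p = 0.00503). Cd70, the ligand of CD27, rose from the edge of detection, with 2 reads in each WT library and 35 and 33 in STAT3-KO, or 0.142 and 0.150 against 2.47 and 2.44 FPKM. The ratio of its reads per depth was 16.9, with an exact 95% interval of 6.30 to 63.7 that covers counting error only (adjusted p = 0.0297). Its receptor Cd27 was at 5.09 and 3.61 in WT against 1.53 and 1.07 in STAT3-KO (-1.21 ± 0.24, adjusted p = 0.0777), and the OX40 and CD30 receptors, Tnfrsf4 and Tnfrsf8, were not called. Of the 22 tested co-stimulatory and inhibitory genes no other was called, where 0.487% of all tested genes were. Without Cd70 the list's median was 0.15 in place of 0.24. Icos was at 188 and 188 against 287 and 294 (0.63 ± 0.11, adjusted p = 0.0552), and the inhibitory receptor Klrg1 at 931 and 822 against 601 and 628 (-0.51 ± 0.09, adjusted p = 0.0655).

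MHC class II presentation genes, which ILC2s use to show peptide to CD4 T cells, had called rises in 2 of 8 tested, where 0.275% of all tested genes had. These were H2-Eb1 and H2-DMb2. The latter reached the FPKM minimum through STAT3-KO alone, so that it had to differ. The other 7 were also higher in both STAT3-KO libraries than in either WT library, where 21.1% of all tested genes were (38.4% in either direction), and their median difference was 0.47. With H2-DMb2 the median was 0.59, against 0.02 over all genes, and it lay between 0.47 and 0.67 in the 17 other settings tried. H2-Eb1, a class II beta chain, was at 12.5 and 16.3 FPKM in WT and 43.2 and 34.1 in STAT3-KO (1.36 ± 0.16, adjusted p = 0.00867; chr17:34305867-34316674). H2-DMb2, a chain of the peptide editor H2-DM, had no read in WT and 87 and 51 reads in STAT3-KO, at 2.96 and 1.82 FPKM. With each WT library set to 3 reads, its mean was at least 22.7-fold higher (adjusted p = 0.00867). Its close copy H2-DMb1 was at 3.81 and 3.66 against 6.89 and 10.1 (0.98 ± 0.20, adjusted p = 0.0861), and reads of the pair may not have been separable. Cd74, the invariant chain, was at 7.82 and 8.64 against 13.8 and 14.5 (0.72 ± 0.16, adjusted p = 0.117). Of markers of other cells that carry class II, those of dendritic cells summed to 13.5 and 14.7 FPKM in WT and 18.7 and 15.5 in STAT3-KO. Most of that sum was H2-Aa, itself a class II gene, at 10.3 and 11.6 against 15.6 and 13.2, while Xcr1 was at 3.02 and 2.81 against 2.82 and 2.21 and Flt3, Itgax, Zbtb46 and Cd209a were at or below 0.210. Markers of B cells summed to 57.8 and 56.3 against 50.3 and 52.9. The part of such cells in the result was not tested.

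The called rises included 3 receptor genes that share no list. Il10ra, the ligand-binding chain of the IL-10 receptor, which signals through STAT3, was at 8.08 and 7.40 FPKM in WT and 17.3 and 17.7 in STAT3-KO (1.08 ± 0.15, adjusted p = 0.0157). It was the 1 gene called of 10 tested receptors that signal through STAT3, where 0.487% of all tested genes were called. S1pr1, the sphingosine phosphate receptor that guides lymphocytes out of tissue, was at 4.93 and 7.79 against 16.4 and 14.2 (1.17 ± 0.19, adjusted p = 0.0339), and was the 1 gene called of 15 chemokine and migration receptors. Ptger4, the EP4 receptor of prostaglandin E2, was at 65.3 and 64.8 against 113 and 118 (0.82 ± 0.11, adjusted p = 0.0207). In all 3 genes the STAT3-KO libraries lay above both WT libraries.

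The other called rises had varied roles. Cdkn2b, which encodes the cyclin-dependent kinase inhibitor p15, was at 15.7 and 17.6 FPKM in WT and 41.4 and 39.6 in STAT3-KO (1.24 ± 0.12, adjusted p = 0.00503). Plk2, a stress-induced polo-like kinase, was at 1.99 and 2.32 against 6.34 and 6.40 (1.23 ± 0.14, adjusted p = 0.00867), and Sema6d, a transmembrane semaphorin, at 1.41 and 1.88 against 6.90 and 7.66 (1.65 ± 0.19, adjusted p = 0.00867). Vegfc, the growth factor of lymphatic vessels, was at 15.4 and 16.5 against 30.04 and 31.7 (0.91 ± 0.11, adjusted p = 0.0108). Each of these 4 genes separated the groups. Stxbp6, Crip2, the mitochondrial creatine kinase gene Ckmt1, Gprasp2, Ggt7, the ETS factor gene Etv5, the tetraspanin gene Cd81 and the syndecan gene Sdc4 completed the list, with log2 differences from 0.56 for Sdc4 to 1.47 for Ckmt1.

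The falls began with a channel gene. Aqp9, which encodes a channel for water and glycerol, was at 12.4 and 11.1 FPKM in WT and at 2.47 and 1.29 in STAT3-KO. Both STAT3-KO libraries lay well below WT, 6.23-fold in the mean (-2.17 ± 0.27, adjusted p = 0.0118; chr9:71110659-71168682). The keratin gene Krt80 was at 18.3 and 15.2 against 3.25 and 4.39 (-1.88 ± 0.22, adjusted p = 0.0101), and Sprn, which encodes the prion-like protein Shadoo, at 3.07 and 3.72 against 0.247 and 0.462 (-1.70 ± 0.25, adjusted p = 0.0274). Troap, which encodes a spindle-associated protein, fell by 1.45 on the log2 scale and Lrrc25 by 1.33.

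Cpa3, the carboxypeptidase A3 gene best known from mast cell granules, was among the abundant called genes. Its FPKM was 326 and 299 in WT and 111 and 140 in STAT3-KO, 2.49-fold lower in the mean and without overlap (-1.32 ± 0.14, adjusted p = 0.00867; chr3:20215620-20242181). Other mast cell and basophil genes in the table were at or near 0 in control, with Cma1 at 0 and Mcpt8 at most 0.126 FPKM, apart from Kit at 11.0 and 31.1 in WT against 31.5 and 30.8 in STAT3-KO (adjusted p = 0.627). Alox5, which makes the first leukotriene precursors, was at 20.9 and 20.2 FPKM in WT and 8.15 and 8.39 in STAT3-KO (-1.22 ± 0.14, adjusted p = 0.0101). Lck, a kinase of lymphocyte receptors, was at 17.2 and 15.8 against 6.48 and 5.83 (-1.29 ± 0.17, adjusted p = 0.0157). The immune receptor genes Lilr4b and Adgrg3 fell by 1.01 and 0.96 on the log2 scale; Lilr4b has close copies whose reads it may share.

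Surface markers used to sort ILC2s were in part lower. Thy1, which encodes CD90, was at 37.2 and 41.9 FPKM in WT and 19.6 and 21.3 in STAT3-KO (-0.92 ± 0.14, adjusted p = 0.0297), and Ly6a, which encodes Sca-1, at 235 and 236 against 136 and 108 (-0.95 ± 0.14, adjusted p = 0.0226). They were the 2 genes called of 42 tested in the list of ILC2 identity genes and receptors, where 0.487% of all tested genes were. The list's median was 0.01, with members on both sides. Of the 42 genes 14 were higher without overlap (21.1% of all tested genes) and 15 lower (17.3%). In limma 13 had an unadjusted p under 0.05 (9.55% of all tested genes). Il1rl1, the IL-33 receptor, was at 231 and 424 in WT and 389 and 359 in STAT3-KO, with WT control 1 alone low (0.26 ± 0.23, adjusted p = 0.837). Il7r, Il2ra and Rora differed by 0.11, 0.18 and 0.08, none of them called.

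**Figure D2:**
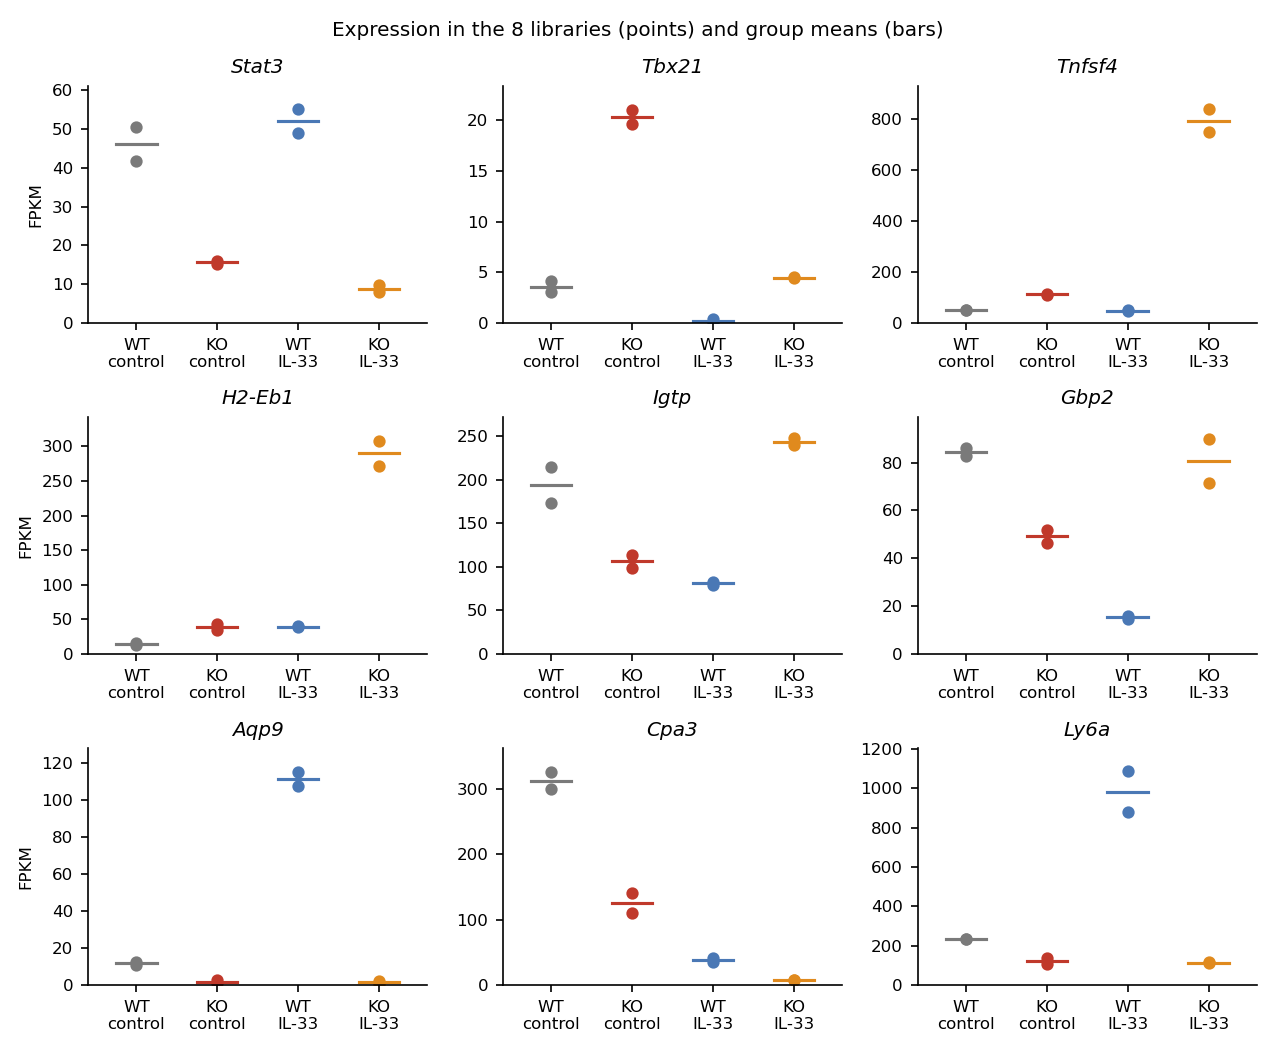
FPKM of 9 genes in all 8 libraries, on linear axes from 0; points are libraries and bars group means. In control, Stat3, Igtp, Gbp2, Aqp9, Cpa3 and Ly6a lie lower in STAT3-KO and Tbx21, Tnfsf4 and H2-Eb1 higher; with IL-33, Igtp and Gbp2 lie higher in STAT3-KO.

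The falls with the closest family ties were those of interferon-inducible GTPases, large GTP-binding proteins that attack the vacuoles of intracellular microbes and are classic targets of interferon-gamma. Promoter windows of 4 genes that were lower in STAT3-KO are shown first, since they share a pattern of motifs. Each is the stretch of 120 bases just before the RefSeq start site (GRCm38.p6), 5′ to 3′ on the gene's strand, in lower case. Capitals mark TTCNNNGAA, the palindromic STAT motif, and the pattern of GAAA, any 2 bases and GAAA, the core of the interferon-stimulated response element bound by IRF family factors. The positions are chr11:58199436-58199555 (Igtp), chr11:58214857-58214976 (Irgm2), chr11:48992247-48992366 (Tgtp1) and chr11:49064213-49064332 (Tgtp2), the last 2 on the minus strand.
Igtp: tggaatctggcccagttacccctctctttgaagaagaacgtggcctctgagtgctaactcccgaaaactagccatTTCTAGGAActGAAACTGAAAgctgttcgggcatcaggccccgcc
Irgm2: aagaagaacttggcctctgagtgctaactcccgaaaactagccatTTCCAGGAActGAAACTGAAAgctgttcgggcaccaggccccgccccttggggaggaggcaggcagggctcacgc
Tgtp1: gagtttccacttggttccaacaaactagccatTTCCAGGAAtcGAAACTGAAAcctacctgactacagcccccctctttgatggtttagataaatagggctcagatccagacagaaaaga
Tgtp2: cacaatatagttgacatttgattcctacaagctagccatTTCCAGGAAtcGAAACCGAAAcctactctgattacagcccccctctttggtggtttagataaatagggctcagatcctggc

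In each of the 4 windows the STAT motif is followed at once by the second motif. The search covered both strands of windows from 250 bases before to 50 after the start, and the second motif was added after the first windows had been read. Of 10 tested GTPase genes with a RefSeq window, 6 held TTCNNNGAA (60%), 9 held the second motif (90%) and 6 held both. Those with both were the 4 shown and Gbp5 and Gbp7, whose windows are not shown. The pattern is therefore not particular to the genes shown. Of the 7604 tested genes with a window, 8.47% held the first, 3.83% the second and 0.526% both. Among called genes with a window, 4 of 15 lower ones held TTCNNNGAA (Igtp, Lilr4b, Tgtp1 and Tgtp2), and 1 of 19 higher ones did (H2-DMb2). The members of this family are related by duplication and share promoter sequence, and a match is no evidence of binding. Ifi47 and Irf9, described next, held neither motif in their windows.

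Of 16 tested GTPase genes, 4 were called lower, where 0.211% of all tested genes were. Without overlap 11 were lower, where 17.3% of all tested genes were. The list's median was -0.54, against 0.02 over all genes, and lay between -0.69 and -0.47 in the 17 other settings. Igtp, which encodes Irgm3, was at 214 and 173 FPKM in WT and 99.1 and 114 in STAT3-KO (-0.85 ± 0.12, adjusted p = 0.0231). Ifi47 was at 307 and 322 against 175 and 195 (-0.76 ± 0.09, adjusted p = 0.0108), and Tgtp2 at 146 and 132 against 60.8 and 63.5 (-1.15 ± 0.14, adjusted p = 0.0108). In all 3 genes both STAT3-KO libraries lay below both WT libraries. Tgtp1, a near-identical copy of Tgtp2 whose reads may have been divided with it, was at 20.3 and 20.01 against 9.50 and 6.81 (-1.22 ± 0.19, adjusted p = 0.0314). Just short of the threshold, Irgm2 was at 16.3 and 19.1 against 9.41 and 7.72 (-0.97 ± 0.17, adjusted p = 0.0574) and Gbp2 at 86.1 and 82.7 against 46.6 and 52.0 (-0.77 ± 0.13, adjusted p = 0.0552). The exception was Iigp1, at 5.65 and 2.51 in WT and 8.88 and 11.7 in STAT3-KO (1.21 ± 0.30, adjusted p = 0.153), the 1 member higher without overlap.

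Transcription factors of the interferon pathway lay on the same side. Irf9, a DNA-binding factor of type I interferon signalling, was at 40.2 and 38.9 FPKM in WT and 22.7 and 23.5 in STAT3-KO (-0.75 ± 0.12, adjusted p = 0.0370). Irf1 was at 84.9 and 93.6 against 54.8 and 59.7 (-0.63 ± 0.15, adjusted p = 0.125). In both genes the groups did not overlap. Of 28 tested interferon-stimulated genes Irf9 alone was called, where 0.487% of all tested genes were. In that list 16 were lower without overlap, against 17.3% of all genes, and the median was -0.22. Without 2 members that reached the FPKM minimum in 1 genotype alone the median was -0.20, with 14 of 26 lower without overlap. Antiviral members with low levels, such as Ifit2, Irf7, Eif2ak2 and Usp18, differed by between -0.26 and 0.13. The interferon receptors Ifngr1, Ifngr2, Ifnar1 and Ifnar2 were not called, with differences from -0.29 to 0.09.

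MHC class I presentation genes, many of them also interferon targets, moved less. None of 20 was called in limma, 8 had an unadjusted p under 0.05 (9.55% of all tested genes did), and 10 were lower without overlap, where 17.3% of all tested genes were. The median was -0.16. The largest fall was that of Tapbpl, a peptide editor of class I, at 40.4 and 38.2 FPKM in WT and 21.6 and 21.9 in STAT3-KO (-0.82 ± 0.15, adjusted p = 0.0666), followed by the immunoproteasome subunit gene Psmb10 (-0.66 ± 0.17, adjusted p = 0.162). The heavy chain gene H2-K1 differed by 0.00 and B2m by 0.03.

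**Figure D3:**
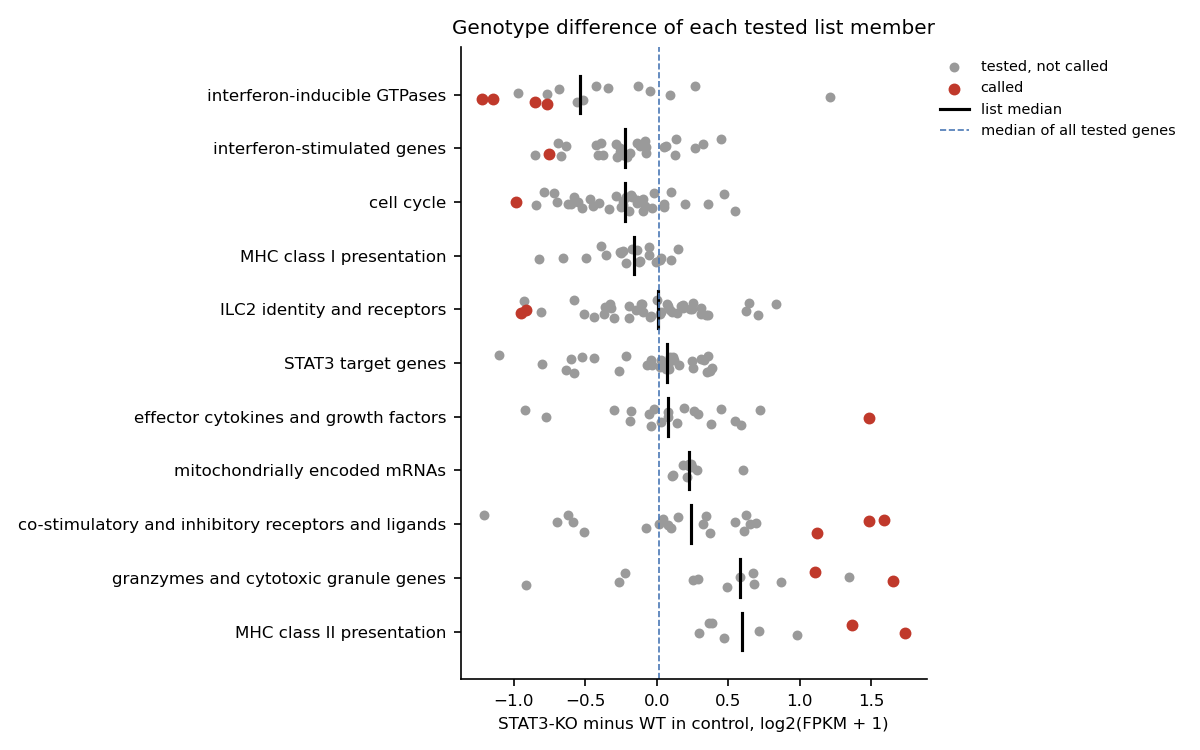
Genotype difference in control, STAT3-KO minus WT on the log2(FPKM + 1) scale, for every tested member of 11 gene lists; red points were called, black bars are list medians and the dashed line is the median of all tested genes. The GTPases lie furthest to the left, with a median of -0.54, and the class II genes and granzymes furthest to the right, with medians of 0.59 and 0.58. Without H2-DMb2, which reached the FPKM minimum through STAT3-KO alone, the class II median was 0.47.

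Known direct targets of STAT3 showed no call in control. Of 30 tested targets none passed in limma, 9 had an unadjusted p under 0.05, against 9.55% of all tested genes, and the median was 0.07. Bcl3, an atypical IκB protein that reached the FPKM minimum in WT alone, had the largest difference, at 3.56 and 2.30 FPKM in WT and 0.889 and 0.730 in STAT3-KO (-1.10 ± 0.23, adjusted p = 0.0933). Socs3, the feedback inhibitor of STAT3 signalling, was at 5.92 and 5.83 against 2.57 and 3.34 (-0.80 ± 0.15, adjusted p = 0.0631). In both genes the STAT3-KO libraries lay below WT, at levels that were low in all 4 libraries. Targets lay on both sides. Of the 29 without Bcl3, 10 were higher without overlap, where 21.1% of all tested genes were, and 7 lower, where 17.3% were. Ccnd2 (0.36, adjusted p = 0.162) and Bcl2 (0.35, adjusted p = 0.294) were higher, while Irf1, given above, was lower. The remaining feedback inhibitors were not called; Socs1 was at 530 and 507 FPKM in WT and 551 and 521 in STAT3-KO, and Cish, a STAT5 target, at 73.5 and 77.0 against 77.999 and 82.02. Apart from Stat3 no gene of the 11 STAT and JAK genes was called.

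The cytokine genes by which ILC2s act were not among the calls. Il5 was at 38.5 and 36.0 FPKM in WT and 49.2 and 42.4 in STAT3-KO (0.29 ± 0.13, adjusted p = 0.513), and Il13 at 30.6 and 37.9 against 46.0 and 47.8 (0.45 ± 0.16, adjusted p = 0.387). In both the STAT3-KO libraries were higher without overlap, but neither was called. Csf2, which encodes GM-CSF, was at 15.4 and 13.96 against 24.3 and 20.96 (0.59 ± 0.13, adjusted p = 0.121), and Lta at 81.2 and 75.1 against 119 and 109 (0.54 ± 0.12, adjusted p = 0.103). Areg was at 4.12 and 4.99 against 2.20 and 6.46, with overlap, and Il4 and Il6 overlapped as well. Tnfsf8 was the 1 gene called of the 21 tested cytokines and growth factors, where 0.487% of all tested genes were called. The list's median was 0.08. Il9 and Il10 had too few reads in control to be tested.

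Proliferation genes lay lower in STAT3-KO by small amounts. Of 36 tested cell cycle genes 23 were lower without overlap, against 17.3% of all tested genes, and the median was -0.22, with a range of -0.25 to -0.21 over the 17 other settings. The 1 member called, where 0.487% of all tested genes were, was Cdc20, the activator of the anaphase-promoting complex. It was at 101 and 88.1 FPKM in WT and 51.1 and 43.2 in STAT3-KO (-0.99 ± 0.13, adjusted p = 0.0157). Mitotic genes came next, with Ccnb1 at 21.04 and 18.1 against 11.3 and 9.62 (-0.84 ± 0.15, adjusted p = 0.0589), Bub1 (-0.79, adjusted p = 0.0852) and Aurkb (-0.72, adjusted p = 0.0666). Cdkn1a, the cell cycle inhibitor p21, was at 57.5 and 62.5 against 91.1 and 84.9 (0.54 ± 0.12, adjusted p = 0.121), beside the called rise of Cdkn2b given above.

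Mitochondrially encoded mRNAs showed no call among 10 tested, with 8 higher without overlap, where 21.1% of all tested genes were, and a median of 0.23. Of them 1 had an unadjusted p under 0.05. Their share of all FPKM was 6.18% and 5.55% in WT control and 6.86% and 7.13% in STAT3-KO control. The most abundant of them, mt-Co1, differed by 0.24 (adjusted p = 0.735), and the largest difference was that of mt-Co3, 0.60, at 3.12 and 3.78 FPKM in WT against 6.67 and 4.93 (adjusted p = 0.446). The number of members without overlap fell to between 6 and 7 when the libraries were rescaled, by median ratios, by quantiles or by removing a trend with gene length.

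In all, 20 of the 31 gene lists held no called gene, with medians between -0.16 and 0.53. They included the nuclear respiratory chain (69 tested, median -0.02), the TCA cycle, glycolysis (32 tested, median -0.03), one-carbon metabolism, lipid synthesis, the unfolded protein response and the NF-κB response. The highest median was that of the 2 tested chemokine ligands. Of these Ccl5, a chemokine of cytotoxic lymphocytes, was at 1.92 and 2.10 FPKM in WT and 5.45 and 4.74 in STAT3-KO (1.01 ± 0.19, adjusted p = 0.0666). Among the 2 most abundant members of each such list, 39 genes, the differences ran from -0.64 for the integrin gene Itgb7 to that of Ccl5.

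Of the called genes 11 were not protein-coding. Gm45456, an unnamed processed pseudogene at chr7:140315813-140316055, was at 22.1 and 17.1 FPKM in WT and 1.47 and 2.56 in STAT3-KO (-2.79 ± 0.21, adjusted p = 0.00362), the smallest adjusted p of the comparison; it was singled out after its values were seen, and it alone remained called without each of the 4 control libraries in turn. The other 10 rested on few reads: 8 were small RNA or microRNA genes with at most 14 reads in any control library, and Trbd1, a T cell receptor segment of 12 bases, had 1 and 2 reads in WT and 8 and 7 in STAT3-KO. Short genes of this kind have large FPKM values for single reads.

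The cultures with IL-33 are a separate set of libraries with the same genotypes. There 3459 genes were called between STAT3-KO and WT (31.8%), and 1576 genotype differences changed with IL-33 (14.5%, the test of the difference between both genotype effects), 671 upwards (6.16%) and 905 downwards (8.31%). The 2 genotypes did not overlap in 66.8% of genes with IL-33. At least 1 on the log2 scale separated 222 genes in control and 1347 with IL-33. The control and IL-33 comparisons share no library, though they share the estimate of the spread. Of the 23 protein-coding genes called higher in control, 21 were called higher with IL-33 too, where 15.4% of all genes were. Of the 19 called lower, 13 were called lower with IL-33, where 16.4% of all genes were. The median difference of the higher genes was 1.23 in control and 1.44 with IL-33, and that of the lower genes -1.22 and -1.30.

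**Figure D4:**
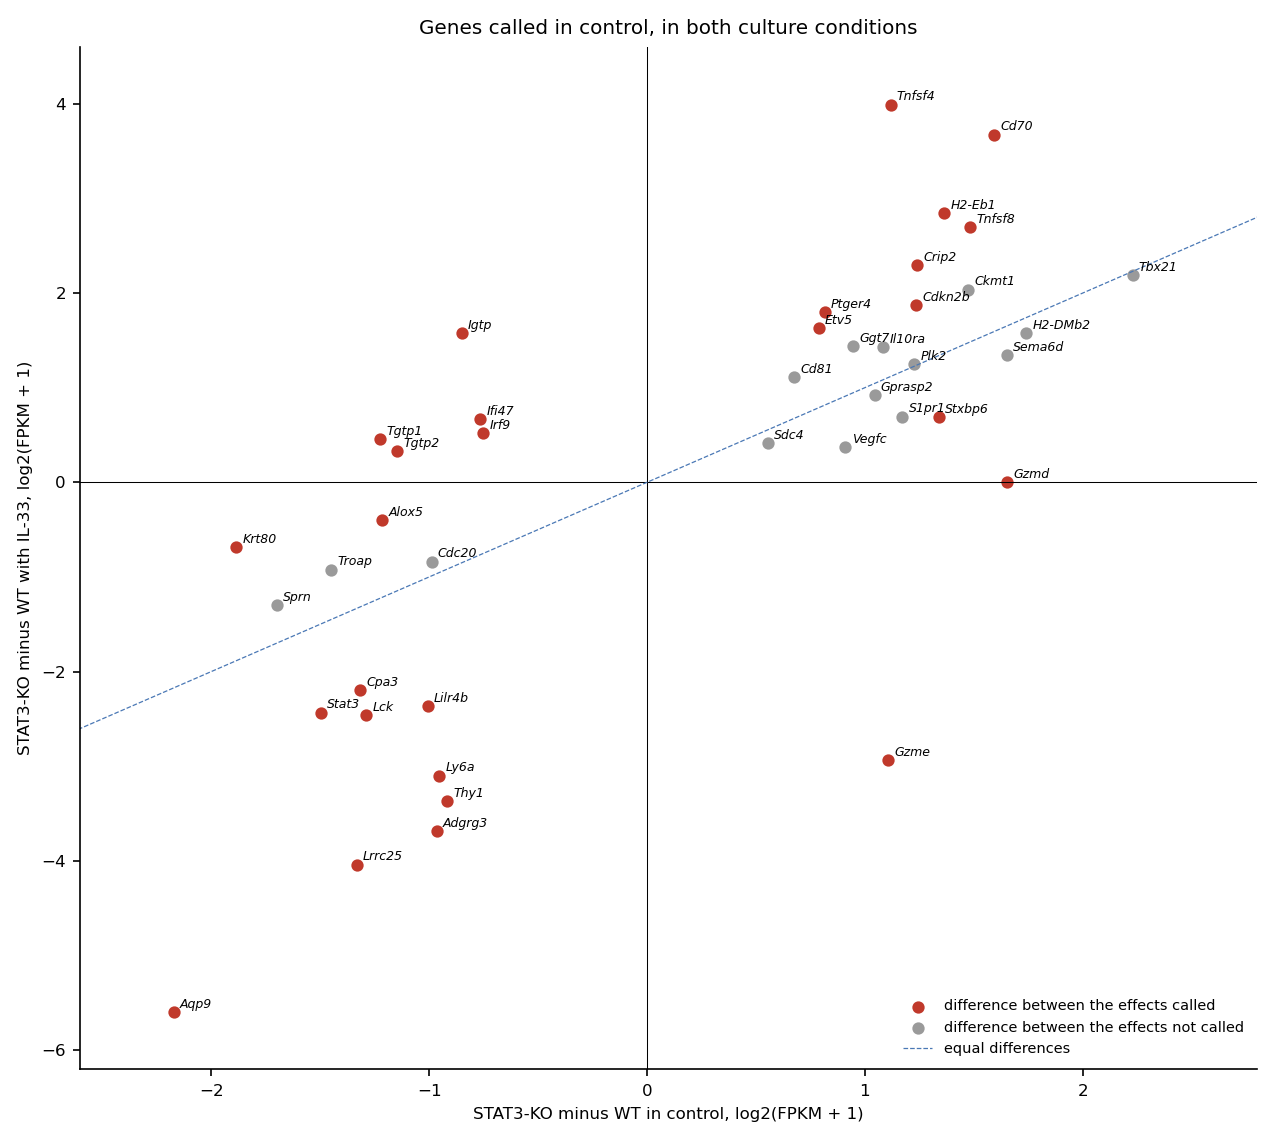
Genotype difference with IL-33 against that in control for the 42 protein-coding genes called in control, both on the log2(FPKM + 1) scale; red points had a called difference between both effects and the dashed line marks equal differences. Tnfsf4 and Cd70 lie far above the line, Aqp9 and Lrrc25 far below it, and the GTPase genes, Irf9 and Gzme lie in the quadrants of opposite signs.

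Most shared differences were larger with IL-33. Tnfsf4 was at 48.5 and 49.1 FPKM in WT with IL-33 and at 748 and 837 in STAT3-KO, so that its difference grew from 1.12 in control to 3.99 (difference between the effects 2.87, adjusted p = 3.63e-05). WT cells stood between 48.5 and 51.9 FPKM with and without IL-33, while STAT3-KO cells were above it in control and far above it with IL-33. The difference of Aqp9 grew from -2.17 to -5.60, since WT reached 107 and 115 with IL-33 and STAT3-KO stayed at 2.04 and 0.761 (adjusted p = 0.00136). That of Ly6a grew from -0.95 to -3.10 and that of Thy1 from -0.92 to -3.37 (adjusted p = 0.000591 and 0.000330). On the log2(FPKM + 1) scale the difference of Tbx21 was 2.23 in control and 2.19 with IL-33 (difference between the effects -0.04 ± 0.31, adjusted p = 0.952). Its levels were lower with IL-33, 0 and 0.444 in WT and 4.44 and 4.55 in STAT3-KO. With WT below 1 FPKM this scale understates a change, so similar differences do not show similar ratios.

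Several interferon-pathway genes were lower in control and higher with IL-33. Igtp was at 79.7 and 82.3 FPKM in WT with IL-33 and at 248 and 239 in STAT3-KO, a difference of 1.58 against -0.85 in control (difference between the effects 2.43, adjusted p = 0.000195). Gbp2 turned from -0.77, not called, to 2.32 (3.08, adjusted p = 8.05e-05), and Ifi47 and Irf9 turned likewise, with differences between the effects of 1.43 and 1.28. Of the 16 tested GTPase genes 12 were called higher with IL-33, where 15.4% of all tested genes were, with a list median of 0.74. For 12 the difference between the effects was called upwards, where it was for 6.16% of all tested genes. Tgtp1 and Tgtp2 lost their fall and were not called with IL-33 (0.46 and 0.33). Gzme went the opposite way, from 1.11 to -2.94, listed at 0 in both STAT3-KO libraries with IL-33 (difference between the effects -4.05, adjusted p = 7.82e-05). Il5 and Il13, not called in control, differed by -1.93 and -1.82 with IL-33.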

How the data were processed

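RNA of 8 libraries of cultured mouse lung ILC2s was measured, 2 in each of 4 groups. Values are FPKM in the deposited table, made by the authors with Bowtie2 and RSEM on GRCm38, per the submitters' processing notes; versions, annotation and strand setting are not given in the sources used here. Of 22075 genes, 22041 were in GENCODE M21 (GRCm38), which gave positions and merged exon lengths. FPKM times that length gave whole reads within 0.02 for 93.4% to 94.6% of values up to 100 reads per library, and hence the depth and the reads quoted; they were not used as counts in a test.

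Genes that reached 1 FPKM in 2 or more of the 4 control libraries were tested on log2(FPKM + 1), pseudocount 1, in limma 3.58.1 (R 4.3.3): 1 mean per group over all 8 libraries, a prior variance with a trend, 3 contrasts (genotype in control, genotype with IL-33, their difference), two-sided, Benjamini-Hochberg adjusted over all genes within a contrast and called at 0.05. A fold on this scale understates the change of low genes; ratios are of mean FPKM. In simulated data for the control comparison with 10623 genes, 50 genes were changed at each size, all with a control mean of at least 5 FPKM. The fit recovered 26% of those changed 1.5-fold, 70% at 2-fold, 98% at 4-fold and 100% at 8-fold, and called 8 of 10423 unchanged genes. Lower genes were not changed, and no library was made to stand apart as WT control 1 did. Recovery in the real comparison may therefore be lower.

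The comparison, 31 gene lists and 12 marker lists were chosen with earlier results of these data known, so list counts are descriptions. Named genes were a fixed panel of STAT, cytokine and identity genes, the 12 largest called rises and falls with at least 5 FPKM in the higher group, up to 3 called or the 2 most abundant members of each list, and those whose effects differed most with IL-33; others were named after their values were seen. A few genes under this rule are not reported here. Promoter sequences are those of RefSeq (GRCm38.p6). Settings varied were the pseudocount, the filter, 2 rescalings, the trend of the prior variance, a length trend, a replicate block, the libraries in the fit and each library left out in turn. Tables and figures were made in Python 3.11.15 with pandas 2.3.3, numpy 2.4.6 and matplotlib 3.10.9.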

Additional observations from a re-analysis of the deposited data

Results flagged for a closer look

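The results below were set aside for 1 reason: the test of the difference between the genotype effects with IL-33 and in control (the log2 difference with IL-33 minus that in control, limma, adjusted over 10894 genes) had an adjusted p under 0.05. Among genes named in the text 62 met it. Values are those differences, on the log2(FPKM + 1) scale.

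Apart from the receptor gene Ifngr1 at -1.41, given again below, the interferon-pathway genes here had positive values. Of them Igtp, Ifi47, Tgtp1, Tgtp2 and Irf9 were called lower in control, and with IL-33 all but Tgtp1, Tgtp2 and Psmb10 were called higher. The GTPase genes Gbp2, Iigp1, Igtp, Tgtp1, Irgm2, Tgtp2 and Ifi47 stood at 3.08, 2.96, 2.43, 1.69, 1.53, 1.48 and 1.43. The factors Irf9 and Irf1 stood at 1.28 and 1.12. The class I genes Tapbpl, Psmb10 and H2-K1 stood at 1.59, 1.13 and 0.50.

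Among genes higher in STAT3-KO in both settings and by more with IL-33, called in control or not, the TNF family genes Tnfsf4, Cd70, Lta and Tnfsf8 stood at 2.87, 2.08, 1.76 and 1.21, Ccl5 at 5.02 and Csf2 at 2.07. H2-Aa stood at 1.82, H2-Eb1 at 1.48, Crip2 at 1.05, Ptger4 at 0.99, Etv5 at 0.84, Ccnd2 at 0.83 and Cdkn2b at 0.63. Stat5a and Stat5b, not called in control, stood at 1.08 and 1.10, and mt-Co1 at 1.14. Cd79b, lower in control without a call and higher with IL-33, stood at 1.63.

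Genes lower in both settings, and by more with IL-33, had negative values: Aqp9 -3.43, Adgrg3 -2.72, Lrrc25 -2.71, Socs3 -2.63, Thy1 -2.45, Ly6a -2.14, Lilr4b -1.35, Bcl3 -1.21, Lck -1.17, Klrg1 -1.15, Bub1 -1.11, Stat3 -0.94 and Cpa3 -0.88. Genes with no call in control that were lower with IL-33 were Kit at -3.58, Il1rl1 at -2.32, Il13 at -2.27, Il5 at -2.22, Tnfrsf8 at -1.82, Il2ra at -1.67, Ifngr1 at -1.41, Il7r at -1.36, Gata3 at -0.88, Ccr3 at -2.34, Vipr2 at -1.59 and Trbc2 at -0.80.

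Granule genes ran from a higher mean in STAT3-KO in control, not called for Gzmb and Prf1, to a lower mean or to 0 with IL-33, at -6.89 for Gzmb, -4.05 for Gzme, -1.98 for Prf1 and -1.65 for Gzmd, which was listed at 0 in all 4 libraries with IL-33. The rise of Stxbp6 was smaller with IL-33, at -0.65, and so was the fall of Alox5 at 0.82. Krt80 stood at 1.20. With IL-33 Krt80 was below 1 FPKM in all libraries, at 0.481 and 0.900 in WT and 0 and 0.0952 in STAT3-KO. The log2(FPKM + 1) scale understates changes at such levels, so this value does not show a smaller fall. Trbd1, not called with IL-33, stood at -2.56.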

How the results depend on the processing

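The count of 53 genes called in control was the least stable value. It was 32 with a pseudocount of 0.1 and 7 with only the 4 control libraries in the fit, of which 6 were among the 53 (Gm45456, Stat3, Tbx21, Tgtp2, Tnfsf4 and Tnfsf8). With 1 library left out it lay between 1 and 43. It was 7 without WT control 1, 1 without STAT3-KO control 1, 5 without STAT3-KO control 2, and 32 without either WT IL-33 library, which enters through the spread alone. In a group reduced to 1 library, that library was taken to vary like the other groups. The other settings gave 75 without a filter, 64 at an FPKM of at least 5, 52 after median-of-ratios rescaling, 77 after quantile normalization, 44 without a trend of the prior variance and 76 with a gene length trend removed. Each of the 53 genes kept its sign in all settings in which it was tested. For the fits with 1 library left out this was fixed in advance, since all 53 separated the groups in control. Of the 53 genes, 4 were called in each of the 9 settings that left out no single library. With IL-33 the count of 3459 lay between 1962 and 3607 with 1 library left out, at 2164 without WT IL-33 1 and 1962 without WT IL-33 2. The 1576 changed genotype differences lay between 697 and 1805, and were over 1.5 times fewer without WT control 1 (881), either STAT3-KO control library (751 and 697) or either WT IL-33 library (853 and 790). The deviations of same-numbered libraries showed no clear correlation (from -0.07 to 0.05). With 2 libraries in each group this cannot exclude that they were paired. A fit with a replicate block called 40 genes in control, 36 of them among the 53. Of the list medians, 9 moved by more than the spread between replicates in other settings and 16 with a library left out, while 269 and 232 did not. Depth limited the genes at a few reads, while for abundant genes the spread between libraries was the limit. Squared differences between replicates were 13.5 to 32.8 times those that counting error gives (chi-square per degree of freedom).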

Other observations

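Constant region transcripts of antigen receptors were abundant in control cells, while genes of the receptor complexes were low or near 0. Trbc2, a constant region of the T cell receptor beta chain, was at 550 and 508 FPKM in WT control and 545 and 515 in STAT3-KO control, and Trbc1 was at 32.2 and 34.7 against 46.7 and 45.7 (log2 difference 0.45 ± 0.20 (SE), adjusted p = 0.513 in limma). Cd3e was at most 0.229 FPKM, Cd3g between 6.75 and 9.15, Cd247 between 1.03 and 2.37 and Trac between 0.800 and 3.82. Ighm, the constant region of the immunoglobulin heavy chain, was at 49.7 and 48.4 against 47.0 and 48.8, while the B cell genes Cd79a and Ebf1 were at most 1.17 FPKM and listed at 0. Cd79b was at 7.50 and 6.75 in WT and 2.29 and 3.83 in STAT3-KO (-1.03 ± 0.20, adjusted p = 0.0685).

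A pair of receptor genes lay higher in STAT3-KO without a call. Vipr2, a receptor of vasoactive intestinal peptide on ILC2s, was at 3.18 and 4.33 FPKM in WT and 6.94 and 7.93 in STAT3-KO (0.84 ± 0.20, adjusted p = 0.139 in limma), without overlap. Ccr3, the eotaxin receptor, was at 0.546 and 0.984 against 2.33 and 3.77 (1.19 ± 0.31, adjusted p = 0.176). It reached the FPKM minimum through STAT3-KO alone, so that its groups had to differ.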
